A study of Drosophila melanogaster with 2 samples.

Results

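Coding-sequence peaks were 564 of the 30000 peaks that a pooled list of CG8216 binding held on the dm6 genome build. CG8216, also named spab, was mapped by chromatin immunoprecipitation and sequencing (ChIP-seq). A peak was counted when its summit, the base of highest signal, lay in coding sequence of at least 1 annotated transcript. It also had to lie more than 500 bp from every annotated transcription start site. Gene models were those of Ensembl release 115, built on FlyBase 6.54. No measured value entered the choice. Host genes, the genes whose coding sequence lay under a summit, numbered 481.

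The animals were whole fruit fly prepupae, males and females pooled, from a transgenic line that expressed CG8216 with green fluorescent protein (GFP) at its C terminus, and chromatin was precipitated through the GFP tag. There were 2 biological replicates of this 1 group and no other condition, so no comparison with untagged or untreated animals was possible. The labels give the age as 24 day, where hours may be meant. Whole animals mix all tissues, and the labels do not state which promoter drives the tagged protein.

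Coding sequence is the part of an exon that is translated, and it is broken up by introns in most fly genes. Transcription factors are mapped most often to promoters and to enhancers in introns and between genes. Binding inside coding exons is also known, since some exons overlap regulatory elements. A relaxed peak list of the kind used here is made to include background, so that the reproducibility of peaks between replicates can be judged along the ranking. The authors derived from it a reproducible list of 5944 peaks, thresholded on the irreproducible discovery rate.

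The reproducible list held 10 of the 564 coding-sequence peaks, and these are the 10 with the highest pooled signal. The sequence around 7 of their summits is printed to show the exon positions of those 7. Each line gives up to 80 bases on either side of the summit, 5′ to 3′ on the strand of the host gene, from Release 6 of the genome. Capitals mark coding bases, and lower case marks introns, other non-coding bases and stop codons. Untranslated bases were left off, which shortened 3 of the 7 lines. The sequences at the other 3 summits are not given here.
Pde1c (2L:11816558-11816653, minus strand): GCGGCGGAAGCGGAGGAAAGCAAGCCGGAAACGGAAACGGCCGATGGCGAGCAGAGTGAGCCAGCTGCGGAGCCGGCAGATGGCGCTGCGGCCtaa
CG5895 (3L:16037029-16037162, plus strand): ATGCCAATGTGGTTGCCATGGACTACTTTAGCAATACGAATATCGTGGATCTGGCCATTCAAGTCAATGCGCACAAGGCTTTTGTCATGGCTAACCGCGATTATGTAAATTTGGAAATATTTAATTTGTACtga
Dph4 (3R:5622138-5622297, minus strand): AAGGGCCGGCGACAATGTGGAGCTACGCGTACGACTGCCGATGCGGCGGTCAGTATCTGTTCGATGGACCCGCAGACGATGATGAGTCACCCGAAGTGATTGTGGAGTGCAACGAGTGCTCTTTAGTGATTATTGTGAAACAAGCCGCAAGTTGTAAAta
bif (X:11681862-11682021, plus strand): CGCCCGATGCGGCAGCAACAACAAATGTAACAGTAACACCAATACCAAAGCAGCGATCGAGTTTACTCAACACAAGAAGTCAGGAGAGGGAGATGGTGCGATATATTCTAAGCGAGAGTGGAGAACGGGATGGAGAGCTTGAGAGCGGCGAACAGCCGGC
bip1 (3L:8057937-8058096, minus strand): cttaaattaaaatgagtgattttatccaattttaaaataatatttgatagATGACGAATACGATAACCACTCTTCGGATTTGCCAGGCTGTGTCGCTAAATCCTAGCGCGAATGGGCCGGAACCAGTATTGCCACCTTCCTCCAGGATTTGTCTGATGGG
CG11668 (3R:13039152-13039311, plus strand): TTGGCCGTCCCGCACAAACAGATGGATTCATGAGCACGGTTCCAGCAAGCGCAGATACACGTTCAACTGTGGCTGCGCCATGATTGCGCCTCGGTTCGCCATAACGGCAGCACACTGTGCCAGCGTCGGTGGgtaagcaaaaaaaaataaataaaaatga
CG13252 (3L:20737386-20737542, plus strand): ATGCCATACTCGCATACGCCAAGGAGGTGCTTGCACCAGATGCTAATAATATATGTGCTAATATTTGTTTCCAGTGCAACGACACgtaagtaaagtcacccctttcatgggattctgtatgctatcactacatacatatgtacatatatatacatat

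In Pde1c the coding run ended with the stop codon taa, 14 bp past the summit. CG5895 and Dph4 also had their summits near the 3′ end of the coding sequence, at 51 and 79 bp from it. In bip1 and CG11668 the lower-case bases began at a coding edge 30 and 52 bp from the summit, and in CG13252 an intron began 8 bp from it. The bif summit was the exception among these lines, at 225 bp from the nearest edge, with 160 coding bases across the whole window. Of the summits not printed, that of otp lay 141 bp from the nearest coding edge, that of CG13784 248 bp and that of Sesn 74 bp. Bases G and C made up 67.7% of the Pde1c line and 38.2% of the CG13252 line, so the 7 sites had no common base composition.

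The strongest coding-sequence peak lay in Pde1c, which encodes a cyclic nucleotide phosphodiesterase, at 2L:11816448-11816701. It had a signal of 473 in the pooled list, 225 in replicate 1 and 241 in replicate 2, in units of the peak caller that the sources do not define. Signals of the pooled list are close to the sum of the replicates' signals, with a median ratio of 1.02 over the 144 coding-sequence peaks found in both. The Pde1c peak was of similar strength in both replicates, and it ranked 1479 among the 30000 pooled peaks.

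The next peak, in the homeobox transcription factor gene otp at 2R:20884535-20884679, had a pooled signal of 327, with 203 in replicate 1 and 120 in replicate 2. CG5895, at 3L:16036879-16037338, had 321, with 128 in replicate 1 and 191 in replicate 2. Dph4, a diphthamide biosynthesis gene, had 298 at 3R:5621988-5622447, with 140 in replicate 1 and 152 in replicate 2. Which replicate was higher therefore changed from peak to peak: otp was higher in replicate 1, and CG5895 and Dph4 in replicate 2.

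The peak in bif, whose product binds actin, had 226 at X:11681712-11682171, with 79.4 in replicate 1 and 128 in replicate 2. CG13784 had 201 at 2L:7207622-7208081, with 62.5 in replicate 1 and 130 in replicate 2. Sesn, which encodes the stress-responsive TOR inhibitor Sestrin, had 164 at 2R:23730788-23731247, with 69.2 in replicate 1 and 97.7 in replicate 2. All 3 were higher in replicate 2, and the CG13784 pair stood more than 2-fold apart.

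In bip1, whose product was found as a partner of the transcription factor Bric-a-brac, the peak at 3L:8057787-8058246 had 164, with 90.5 in replicate 1 and 79.7 in replicate 2. CG11668 had 163 at 3R:13039002-13039461, with 73.4 in replicate 1 and 87.0 in replicate 2. The weakest of the 10, in CG13252 at 3L:20737233-20737692, had 156, with 62.4 in replicate 1 and 98.1 in replicate 2. In 8 of the 10 the signal was higher in replicate 2, and every one had a summit in both replicates within 48 bp of the pooled summit.

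Peaks 11 to 20 of the coding-sequence ranking had pooled signals of 119 to 141 and were not in the reproducible list. They lay in CG13086, su(w[a]), a regulator of RNA processing, CG1632, CG32425, Sdb, Ubr1, an N-end rule ubiquitin ligase, sgg, the GSK3 kinase of the Wingless pathway, Tm1, a tropomyosin, bun, a TSC22 family gene, and tweek, which acts in synaptic vesicle recycling. Of these 10, 9 had a summit in each replicate within 100 bp, and the tweek peak had one in replicate 1 only. The su(w[a]) peak had 42.7 in replicate 1 and 87.2 in replicate 2, and the bun peak had 78.6 in replicate 1 and 44.0 in replicate 2. Tm1 was the most even of them, with 61.5 in replicate 1 and 61.4 in replicate 2. The plot of replicate signals by host gene shows both orders among the strongest 20, with 12 of them higher in replicate 2.

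**Figure D1:**
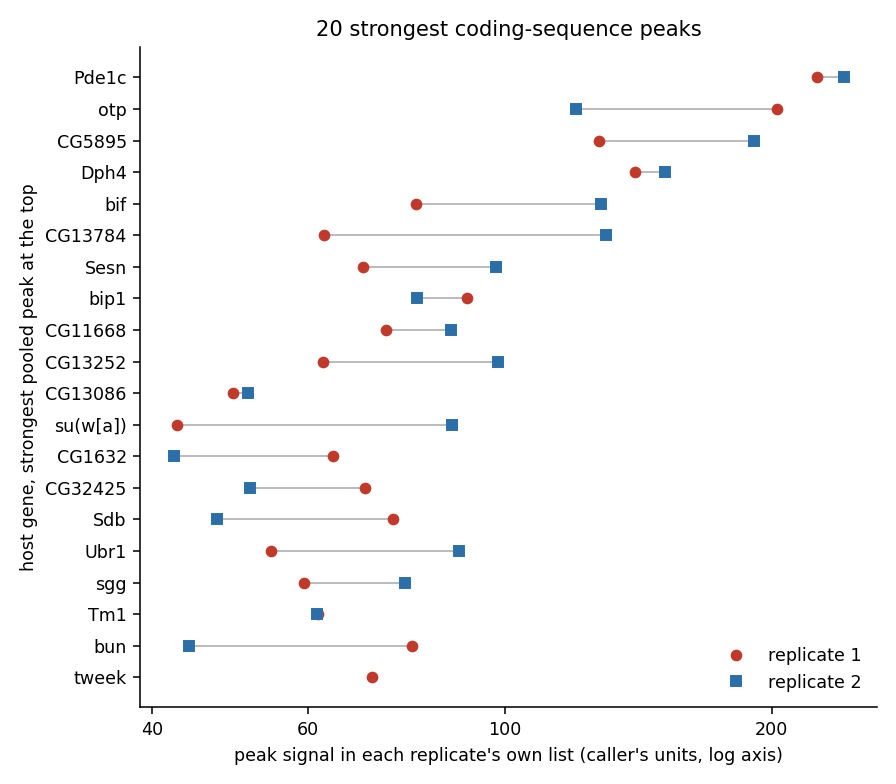
Peak signal in replicate 1 (circles) and replicate 2 (squares), on a log axis in the caller's units, for the 20 strongest coding-sequence peaks, named by host gene, with the strongest pooled peak at the top. Grey lines join the replicates of a peak. The replicates change places from gene to gene, and the tweek peak has a value in replicate 1 only.

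As a whole the coding-sequence peaks were weak. Their pooled signal had a median of 42.5, with quartiles of 35.2 and 54.8 and a range of 31.8 to 473. All 30000 pooled peaks had a median of 61.3 with quartiles of 41.5 and 120. Peaks in introns had a median of 61.2, in 3′ untranslated regions 53.7, between genes 54.6 and within 500 bp of a start site 82.6. Coding sequence was the lowest of these classes, and its upper quartile lay below the median of the intron peaks. A q value of at most 0.05, as deposited, was given to 58 of the 564 coding-sequence peaks (10.3%, exact 95% interval 7.90 to 13.1), against 41.3% of all pooled peaks. The peaks are not independent replicates and read depth is unknown, so these intervals cover counting error only.

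Coding sequence held far fewer summits than its share of the genome. Bases that met the same rule made up 13.9% of the 6 chromosomes, 18.6 of 134 Mb, and 1.88% of the pooled summits lay in them (exact 95% interval 1.73 to 2.04). An even spread would have put 4169 summits there, so the 564 found were 0.135 times that number. The two-sided exact binomial p was too small for the software to write as other than 0. In the lists of the single replicates, also of 30000 peaks each, the count was 875 in replicate 1 (2.92%, 0.210 times the even spread) and 509 in replicate 2 (1.70%, 0.122 times). In the reproducible list it was 10 of 5944, or 0.0121 times. How far uneven mapping of reads or base composition enters these ratios was not tested.

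The share in coding sequence grew steadily down the ranking. In bins of 3000 peaks it was 0.133% in the strongest bin, 0.600% in the third, 1.60% in the fifth, 2.37% in the seventh and 4.60% in the last, with 138 summits there against 4 in the first. Replicate 1 went the same way, with 0.133% in its strongest bin and 6.63% in its weakest. Replicate 2 had 0.100% in its strongest bin and 3.70% in its weakest. The intervals of the 2 replicates overlapped in the 4 strongest bins and were separate from the fifth on. In the fifth bin they were 2.12 to 3.31 in replicate 1 and 1.15 to 2.08 in replicate 2, and in the weakest 5.77 to 7.58 in replicate 1 and 3.05 to 4.44 in replicate 2.

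**Figure D2:**
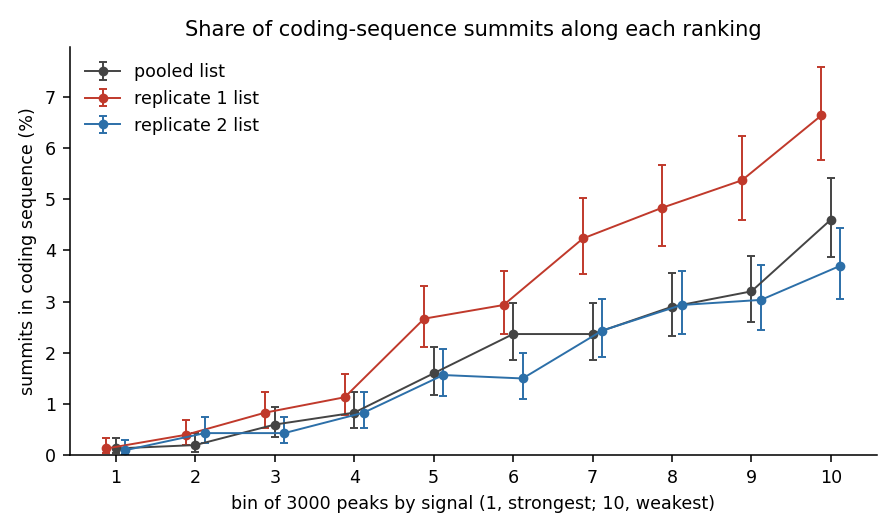
Percent of summits in coding sequence more than 500 bp from a start site, in bins of 3000 peaks from the strongest (1) to the weakest (10), for the pooled list and each replicate's own list, with exact 95% intervals. The share grows along all 3 rankings, to 4.60% in the pooled list, 6.63% in replicate 1 and 3.70% in replicate 2.

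Fewer coding-sequence peaks than other peaks were found in both replicates. A summit of each replicate lay within 100 bp in 144 of 564 (25.5%, exact 95% interval 22.0 to 29.3), against 52.6% of all pooled peaks. In the reproducible list were 10 of 564 (1.77%, interval 0.853 to 3.24), against 19.8% of all pooled peaks. That list is nearly the top of the pooled ranking, with a lowest signal of 149.5, against 148.1 at pooled rank 6000. Its share thus mostly restates the low signal of coding-sequence peaks. By matched summits, the counts were as follows. Replicate 1 alone matched 196, replicate 2 alone matched 132, and neither matched 92. Replicate 1 thus supplied more of the single matches here, whereas over all pooled peaks it supplied 5220 and replicate 2 supplied 6570.

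At like rank the shares lay closer together. In bins of 6000 pooled peaks, the share matched in both replicates was 100% of 10 coding-sequence peaks in the strongest bin, against 94.5% of the other peaks. The second bin had 88.4% of 43 against 81.4%, and the third had 50.4% of 119 against 57.7%. In the fourth bin it was 21.5% of 158 against 25.01%, and in these 4 bins the interval of the coding-sequence peaks held the share of the others. The weakest bin stood apart, with 2 of 234 coding-sequence peaks (0.855%, exact 95% interval 0.104 to 3.05), against 4.70% of the others. That bin also held 234 of the 564 coding-sequence peaks.

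**Figure D3:**
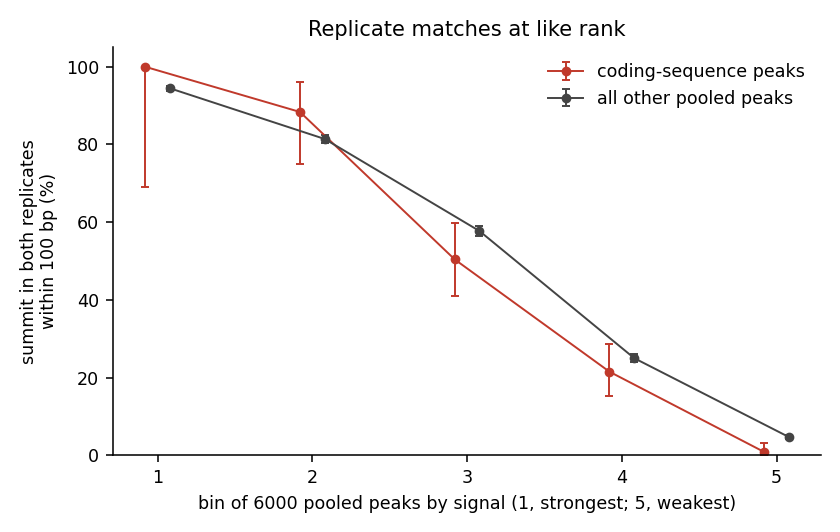
Percent of pooled peaks with a summit of both replicates within 100 bp, in bins of 6000 peaks from the strongest (1) to the weakest (5), for coding-sequence peaks and all other peaks, with exact 95% intervals. The 2 lines run close together in bins 1 to 4, and in bin 5 the coding-sequence peaks stand at 0.855% and the others at 4.70%.

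Starting from each replicate's own list gave the same picture. Of the coding-sequence peaks of replicate 1, 17.8% had a summit of replicate 2 within 100 bp (156 of 875), against 54.0% of its other peaks. From replicate 2 it was 28.5% (145 of 509), against 53.4%. Among the 144 pooled coding-sequence peaks matched in both, the log2 ratio of replicate 1 over replicate 2 had a median of -0.10 and an SD of 0.56 across peaks. Over all 15779 matched pooled peaks the median was -0.19 and the SD 0.56, so the matched coding-sequence peaks scattered about as much. In 13 of the 144 the replicates differed more than 2-fold, and replicate 2 was the higher in 88. Across these peaks, which share the 2 libraries, Spearman's correlation between replicate signals was 0.532, against 0.837 over all matched peaks, whose signals span a wider range.

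Within coding sequence the summits lay near its edges. Summits lay at a median of 100.5 bp from the closer edge of their coding exon, against 170 bp for all coding bases that met the rule. Within 50 bp of an edge were 165 summits (29.3%, exact 95% interval 25.5 to 33.2), against 20.7% of the bases. Within 100 bp were 282 (50%, interval 45.8 to 54.2), against 36.3% of the bases. The exons that held them were shorter, with a median coding length of 514.5 bp, against 821 bp over the bases. The nearest edge was the 3′ one in 309 and the 5′ one in 255. Past that edge and any stop codon lay an annotated exon of any gene, on either strand, in 203, and otherwise an intron in 359. Among the 10 of the reproducible list the median distance was 63 bp, and in the weakest bin of 6000 it was 104.5 bp.

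Within 50 bp of the coding edge, summit density was somewhat higher on the non-coding side in every list. Pooled density was 42.8 summits per Mb on the coding side (exact Poisson 95% interval 36.5 to 49.8), and on the non-coding side it was 48.9 (41.6 to 57.0). Deeper in coding sequence it was 29.5 per Mb at 101 to 200 bp, 15.4 at 501 to 1000 bp and 12.1 beyond 1000 bp, where 14 summits lay. Outside, it was 133 per Mb at 101 to 200 bp, 245 at 501 to 1000 bp and 296 at 1001 to 2000 bp. The interval beyond 1000 bp inside, 6.61 to 20.3, lay wholly below that of the first 50 bp. Replicate 1 gave 58.1 per Mb within 50 bp inside and 16.4 beyond 1000 bp, and replicate 2 gave 42.8 and 10.4. Just outside the edge, replicate 1 gave 68.2 (59.6 to 77.7), where its interval inside was 50.7 to 66.2. Replicate 2 gave 56.1 (48.3 to 64.8), where its interval inside was 36.5 to 49.8. Overlap of such intervals does not show that the 2 sides are equal, and the difference was not tested. The reproducible list had 0.778 per Mb within 50 bp inside (3 summits, 0.160 to 2.27) and 3.02 outside (10 summits, 1.45 to 5.55). Of the reproducible list, no summit lay deeper than 500 bp in coding sequence, which allows up to 1.54 per Mb at 501 to 1000 bp. Nearly all of these peaks, 561 of 564, were 460 bp wide, and sheared DNA of 200 to 800 bp was sequenced per the labels. The peak reached past an edge of its coding exon in 404 of the 564 (71.6%). A like share for windows on all coding bases, whose median distance to an edge was 170 bp, is not given here.

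**Figure D4:**
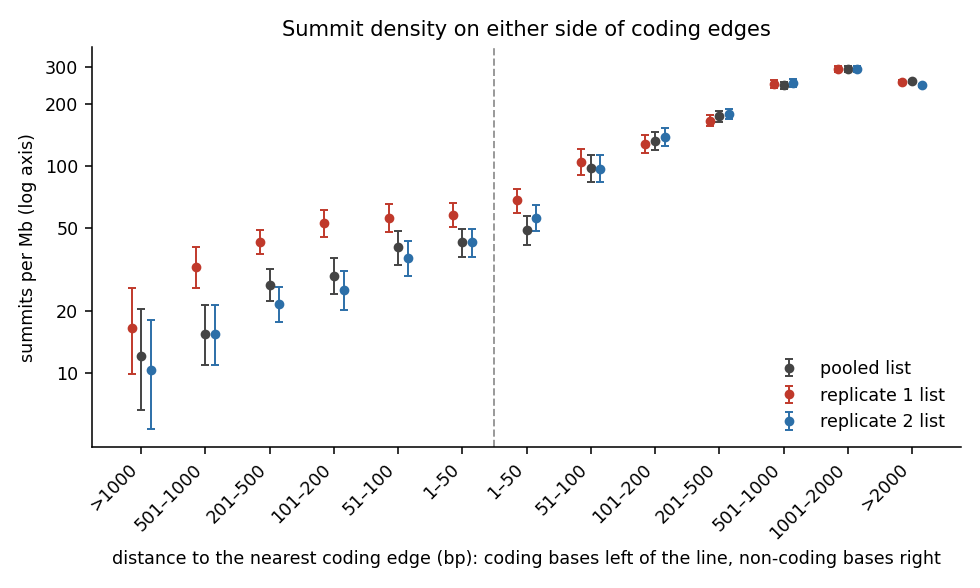
Pooled and replicate summits per Mb, on a log axis, by distance from the nearest edge of coding sequence, with coding bases left of the dashed line and non-coding bases right of it, all more than 500 bp from a start site. Bars are exact Poisson 95% intervals. Density climbs from 12.1 per Mb deep in coding sequence to 42.8 at the edge, is 48.9 just outside it and reaches 296 farther out.

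Some coding-sequence summits had another reading in the annotation. In 91 of the 564 (16.1%, exact 95% interval 13.2 to 19.4) the base was also intronic in another transcript, against 12.8% of the coding bases. It was also 5′ untranslated in 16 (2.84%, interval 1.63 to 4.57), against 1.25% of the coding bases. In 20 it was also 3′ untranslated (3.55%, interval 2.18 to 5.42), against 4.59% of the coding bases. A stronger pooled summit lay within 500 bp of 76 (13.5%), against 19.0% of the other peaks. The Gr77a summit, for example, was 203 bp from the stronger CG13252 summit, and those 2 peaks overlapped. Among the 20 strongest, the CG13086 and CG1632 summits lay 214 and 204 bp from a stronger pooled summit. The nearest other pooled summit of any signal was at a median of 1101 bp, against 780 bp for the other peaks. Fewer coding-sequence peaks than other peaks thus had a stronger neighbour at that distance.

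At coding-sequence summits the bases were those of coding sequence. Over 200 bp windows, G and C made up a median of 53.5% (quartiles 48 and 58), against 52.5% in coding sequence without a pooled summit and 39.5% at other peaks beyond 500 bp of a start site. The reproducible list as a whole had 35.0%. The other peaks had a dip at the summit, with 38.8% over its central 50 bp and 43.6% at more than 200 and up to 300 bp from it. The coding bases around coding-sequence summits had 55.3% over the central 50 bp and 54.4% at that distance, without such a dip. Non-coding bases were left out there but not at the other peaks, so these are unlike measures. With all bases counted, the median at coding-sequence summits was 55% in windows of 100 bp and 51% in windows of 400 bp. At the other peaks it was 39% and 41%.

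**Figure D5:**
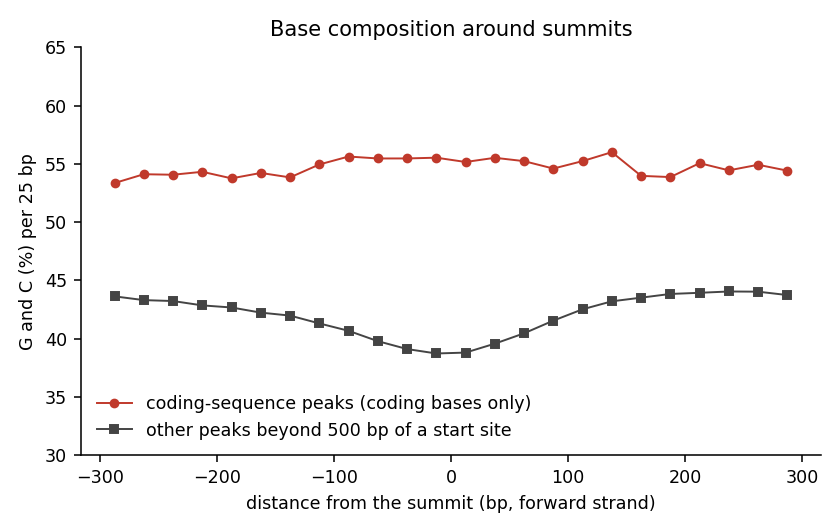
Percent of G and C in steps of 25 bp around the summit. Coding-sequence peaks are shown over coding bases only, and other peaks more than 500 bp from a start site over all bases. The other peaks dip to 38.8% over the central 50 bp, and the coding bases stay near 55.3%.

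A set of 3 words of 7 letters known from earlier results of these data were counted on both strands in the same windows. CAGTGTA was in 14 of the 564 coding-sequence windows (2.48%, exact 95% interval 1.36 to 4.13), against 4.94% at other peaks beyond 500 bp of a start site, 7.45% in the reproducible list and 1.26% of coding windows without a summit. CAGTGCA, which shares its first 5 letters with CAGTGTA, was in 20 (3.55%, interval 2.18 to 5.42), against 8.03%, 10.6% and 3.42% in the same order. CACTGAG was in 13 (2.30%, interval 1.23 to 3.91), against 4.76%, 6.71% and 2.17%. For CAGTGCA and CACTGAG the interval held the share of coding windows without a summit, and for CAGTGTA the lower bound lay above it. In windows of 100 bp CAGTGTA was in 7 (1.24%), and the interval, 0.500 to 2.54, held the 0.601% of coding windows without a summit. In windows of 400 bp it was in 23 (4.08%), and the lower bound of 2.602 lay just above the 2.597% of coding windows. Of the printed lines, CG13252 alone held one of them, CAGTGCA at position 72 of its line. A match is a description of the letters and not a shown binding site.

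The X chromosome held few of the coding-sequence peaks. It had 52 of 564 (9.22%, exact 95% interval 6.96 to 11.9) and 17.9% of the coding bases that met the rule, a ratio of 0.516. The two-sided exact binomial test gave p = 5.29e-08 after Benjamini-Hochberg adjustment over the 6 chromosomes. Other pooled peaks lay on the X in 16.7%. In replicate 1 the X held 79 of 875 (9.03%), and in replicate 2 it held 55 of 509 (10.8%). Males carry a single X, so its bases were also weighted 3 to 4, the copy number expected if as many males as females were pooled, and both this weighting and the test by chromosome were chosen after seeing the data. The X then stood for 14.0% of coding bases and the exact binomial adjusted p was 0.00399 for the pooled list, 5.31e-05 for replicate 1 and 0.0722 for replicate 2, so the call was lost in replicate 2. The proportion of the sexes in the pools is not given.

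On the other chromosomes the pooled counts did not pass the test. Arm 3L held 132 peaks, 1.21 times its share of coding bases. Its exact binomial adjusted p was 0.0570 in the pooled list, 0.0232 in replicate 1 and 0.0248 in replicate 2. Of the coding-sequence peaks 23.4% lay on 3L, and of the other pooled peaks 23.1%. Its share was thus not particular to coding-sequence peaks. Chromosome 4 held 2, 0.259 times its share. Its exact binomial adjusted p was 0.0580 in the pooled list, 0.0603 in replicate 1 and 0.0248 in replicate 2. The other pooled peaks were also few there, at 0.149% against 0.355% of the coding-sequence peaks. Arms 2L, 2R and 3R held 115, 117 and 146, and their adjusted p values in the same exact test were 0.307, 0.364 and 0.307. Of these, 2L passed in replicate 1 alone, at an adjusted p of 0.0232 in the exact test. With the X weighted 3 to 4 none of these calls passed in the exact test: the adjusted p was 0.0965 for 3L in replicate 1, 0.0722 for 3L and for chromosome 4 in replicate 2, and 0.0962 for 2L in replicate 1.

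Of 12397 genes with coding sequence that met the rule, 481 held a coding-sequence peak, which is 3.88%. In 415 there was a single peak, in 52 a pair, in 11 there were 3 and in 3 there were 4. Those 3 were robo2, an axon guidance receptor of the Roundabout family, osp, the outspread gene, and cv-c. Peaks of robo2 had pooled signals of 75.4, 43.1, 41.0 and 36.1, and the 2 strongest of them were matched in both replicates. None of the 4 peaks of cv-c, at 57.2, 53.4, 43.3 and 37.1, was matched in both. Those of osp had 60.4, 45.7, 43.7 and 34.5, and only the one at 43.7 was matched in both. Of the 11 genes tied at 3 peaks, the 2 whose strongest peak had the highest signal were bif, with its further peaks at 58.5 and 37.8, and bun, with its further peaks at 56.8 and 38.8. In these 5 genes the further peaks all lay below the median of 61.3 of all pooled peaks, and most were not matched in both replicates. Those of bif at 58.5 and bun at 56.8 lay above 54.8, the upper quartile of coding-sequence peaks. That bun peak was matched in both replicates. The cv-c peaks at 57.2 and 53.4 overlapped, with summits 272 bp apart in the same coding exon.

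Host genes were long. Their median coding length was 1700 bp, against 985 bp for the other genes, and their median span was 9615 bp, against 2390.5 bp. A summit of the reproducible list lay somewhere within 186 of the 481 hosts (38.7%), against 12.1% of the 11916 other genes. Within 500 bp of a start site it lay in 122 hosts (25.4%), against 11.1%. Long genes offer more room for a summit, and genes of like length were therefore set side by side. Among genes of up to 3 kb the share with a reproducible summit was 6.25% of 144 hosts (exact 95% interval 2.90 to 11.5), against 2.13% of the others, and 3 of those 9 hosts held a reproducible coding-sequence peak themselves. Among genes of 3 to 10 kb the share with a reproducible summit was 24.2% of 99 hosts (exact 95% interval 16.2 to 33.9), against 14.6% of the others. At 10 to 30 kb it was 56.9% of 116 hosts (47.4 to 66.1), against 42.4%, and above 30 kb it was 71.3% of 122 hosts (62.4 to 79.1), against 59.8%. Of the hosts with a summit in these 3 longer classes, 1, 5 and 1 held a reproducible coding-sequence peak themselves. The part of coding length was not tested.

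Gene lists that fit a prepupa were counted against the 3.88% of all genes. None of 55 cytoplasmic ribosomal protein genes, 12 glycolysis genes, 8 actin and tubulin genes, 8 glue genes of the salivary gland or 14 basement membrane genes on these lists held a coding-sequence peak. The lists are not complete: the laminin gene wb, outside them and named after its value was seen, had a peak at 57.6, with 20.2 in replicate 1 alone. Coding sequence beyond the 500 bp limit was small for the ribosomal protein (15.3 kb), glycolysis (13.5 kb), actin and tubulin (10.1 kb) and glue genes (5.6 kb). For each of these lists the mean density of 30.3 peaks per Mb predicts fewer peaks than 1. The basement membrane genes had 144 kb, for which that density predicts more than 1. Among 26 sarcomere and muscle genes 2 were hosts, Tm1 above and sls, which encodes the titin-like Sallimus, with a signal of 44.8 in the pooled list, 19.2 in replicate 1 and 26.8 in replicate 2. Their 226 kb of coding sequence held 8.84 peaks per Mb, less than the mean. Of 11 listed translation factor genes 1 was a host (9.09%), eEF5, with a pooled signal of 37.1 and 18.1 in replicate 1 alone. The initiation factor gene eIF5B, not on the list, had 42.7, with 22.0 in replicate 1 alone.

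Genes of the prepupal stage had peaks mostly below the median of 61.3 of all pooled peaks, though several lay above the coding-sequence median of 42.5. Of 24 ecdysone response genes, those that follow the steroid pulse that starts metamorphosis, 4 were hosts (16.7%, against 3.88% of all genes). They held 61.3 peaks per Mb of coding sequence, against 30.3 over all genes, on 4 peaks only. The ABC transporter gene E23 had 106, with 32.6 in replicate 1 and 67.5 in replicate 2. The nuclear receptor genes Eip75B, Eip78C and ftz-f1 had 57.1, 39.6 and 33.4, of which the first was matched in replicate 2 alone and the other two in neither replicate. Of 96 cuticle genes 4 were hosts (4.17%, near the 3.88% of all genes), with 5 peaks, or 110 per Mb of coding sequence. Cpr73D had peaks at 59.99 and 59.8, the weaker of which was matched in both replicates with 31.0 in replicate 1 and 28.2 in replicate 2, and Cpr100A had 44.9 with a match in replicate 1 only.

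Of 15 fat body genes 2 were hosts (13.3%, against 3.88% of all genes), both for larval serum proteins that store amino acids for the pupa. The list held 69.7 peaks per Mb of coding sequence, against 30.3 over all genes, on 3 peaks only. Lsp1gamma had peaks at 65.2, matched in replicate 2 only, and 53.1, matched in replicate 1 only, with summits 286 bp apart, and Lsp2 had 34.1 with a match in replicate 1 only. Among 25 heat shock genes 2 were hosts (8%), with 58.4 peaks per Mb on 2 peaks. Hsp67Ba had 87.2, with 52.6 in replicate 1 and 29.9 in replicate 2, and the chaperonin gene Hsp60B had 32.4 with no match. The only Hox gene of 8 with a coding-sequence peak was Ubx, at 32.1 with a match in replicate 1 only. Peaks matched in both replicates were thus E23, Hsp67Ba and 1 of Cpr73D among these stage and stress genes.

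Large and neural genes gave the remaining counts. Of 20 cadherins and large adhesion proteins 5 were hosts, with 8 peaks and 48.5 peaks per Mb of coding sequence, against 30.3 over all genes. The protocadherin gene ds had 64.6, with 23.9 in replicate 1 and 39.2 in replicate 2, and a second peak at 34.03 matched in neither. Dscam2, a cell recognition molecule of neurons, had 54.4 with a match in replicate 1 only and 32.9 with a match in replicate 2 only. Of 20 listed synapse and ion channel genes 1 was a host (5%), slo, a calcium-activated potassium channel, at 46.9 with a match in replicate 1 only. Channel and synapse genes outside the list were also hosts, among them Orai at 51.4, Hk at 46.2 and ppk at 42.0. Chemoreceptor genes, which are mostly silent outside sensory neurons, had 5 hosts of 179 (2.79%) and 29.7 peaks per Mb, close to the mean. Their strongest were Gr93a at 59.9 and Gr77a at 56.2, both matched in replicate 2 only.

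Nearest to the 500 bp limit, the coding summits just within it had lower signals than those just beyond it, apart from Csp. Just beyond it were summits in Orai and sbb, both at 502 bp from a start site, CG14354 at 505 bp, to at 506 bp and mfas at 507 bp, with signals of 51.4, 47.5, 37.1, 67.4 and 49.2. Just within it were Csp at 500 bp, CG6707 at 498 bp, CG13028 at 496 bp, Sox15 at 493 bp and CG9259 at 488 bp, with signals of 80.8, 36.6, 32.9, 35.0 and 35.2. In all, 281 further summits lay in coding sequence but within 500 bp of a start site. Their median signal was 46.1, and 20 of them (7.12%) were in the reproducible list.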

How the data were processed

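The deposited dm6 lists were used: the pooled list, the list of each replicate, and the reproducible list. Per the deposited file lists, the relaxed lists were made from each replicate's alignment, or both pooled, with 1 control alignment. The signal of each peak and its −log10 q value were deposited by the authors, who also gave the summit offset. For the aligner, the peak caller and the threshold on reproducibility, names and settings were not given in the sources used here. Depth is unknown. The dm3 lists were not used here.

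Summits were placed on Release 6 chromosomes X, 2L, 2R, 3L, 3R and 4, and annotated transposable elements were left out. Exact binomial tests were two-sided with a threshold of 0.05, and intervals were Clopper-Pearson or exact Poisson at 95%. Replicate summits within 100 bp were called matched. Peaks share libraries and neighbours, so p-values describe the lists and not the spread between animals.

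The members, the words and the 15 gene lists (521 genes; 3 symbols unmatched) were chosen with earlier results of these data known. Named were hosts of the 20 strongest peaks, of all peaks in the reproducible list, the 5 genes with most peaks (ties broken by the strongest peak), the 2 strongest in each list and 5 peaks on each side of the limit; names outside this rule were picked with values in view. The alternatives covered other start-site limits, annotations, lists, matching distances and windows. The tools were SciPy 1.17.1, pandas 2.3.3, NumPy 2.4.6 and, for figures, matplotlib 3.10.9, under Python 3.11.15, and the counting was checked on simulated data.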

Additional observations from a re-analysis of the deposited data

How the results depend on the processing

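Over every alternative run, coding sequence held fewer summits than its share of bases, at 0.0485 to 0.210 times the even spread. With the 15000 strongest pooled peaks there were 101 coding-sequence peaks in 96 host genes, with a median signal of 81.3. Of them, 9.90% were in the reproducible list and 78.2% were matched in both replicates. The like shares over all of the 15000 are not given here. The 19.8% and 52.6% above are of the full pooled list, with its weaker peaks, and are no measure for these 2 values. The lists of the single replicates gave 509 to 875 peaks, median signals of 21.52 to 24.999, 436 to 741 host genes, and X ratios of 0.505 to 0.605. Matching within 50 bp, within 200 bp or by overlap of intervals gave 18.8%, 34.04% and 43.3% of coding-sequence peaks, against 39.3%, 64.3% and 73.5% of the others. In windows of 100 bp, CAGTGTA was in 1.24%, CAGTGCA in 1.77% and CACTGAG in 0.887%, and G and C made up 55.0%. There the CAGTGTA interval, 0.500 to 2.54 on 7 windows, held the 0.601% of coding windows without a summit. The reproducible list and the other distal peaks had like shares at 100 bp: 2.25% and 2.21% for CAGTGTA, 3.28% and 3.45% for CAGTGCA, 1.95% and 1.97% for CACTGAG. In windows of 400 bp, CAGTGTA was in 4.08%, CAGTGCA in 7.27% and CACTGAG in 5.14%, and G and C made up 51.0%. The CAGTGTA lower bound there, 2.602, lay just above the 2.597% of coding windows without a summit. A wider window holds more words by construction. Of 54 values recomputed, 19 moved beyond their interval or, for counts, beyond 1.5 times. Among the other 35, tested ratios needed only the same direction and side of the threshold. No paired analysis was possible because the series has 1 group. Depth, the control and mapping were not examined.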

Other observations

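Words of 6 letters were compared between 200 bp windows at coding-sequence summits and 92480 windows of coding sequence without a summit, strands merged, as a search made after the data were seen and without a test. Of 1654 words present in at least 5% of the summit windows, GCCCCC had the largest ratio, at 8.87% of coding-sequence windows against 4.03%, or 2.20 times. In the own list of replicate 1 its ratio was 2.10, and in that of replicate 2 it was 1.07. CGCCCC stood at 2.19 times, with 2.10 in replicate 1 and 1.23 in replicate 2. AGGGGG stood at 2.18 times, with 1.83 in replicate 1 and 1.85 in replicate 2. So the 2 leading words, both runs of C within GC-rich letters, were frequent in the list of replicate 1, which also held more coding-sequence peaks, 875 against 509 in replicate 2. The median share of G and C at the coding-sequence summits was 54.5% in replicate 1 and 53.0% in replicate 2. The other peaks had 40.5% in replicate 1 and 39.5% in replicate 2, so the shift between libraries was about as large there. Whether the 2 libraries differ in their recovery of such sequence was not tested.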
